A study of Mus musculus with 12 samples.

Results

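The genes described here belong to the interferon response and to antigen presentation by MHC class I. They were chosen by name for their known function, as every gene probe of the array whose name was one of 41 symbols or an older or current symbol of the same gene. The 41 names were matched by 66 of the 41174 gene probes, which carry 28786 gene names in all. One name covered a pair of genes, because probes named Ifi27 on the array belong to Ifi27l2a in RefSeq while the current Ifi27 had an older name, so that 42 genes are described. Of these, 39 were tested, and Oas1g, Oas3 and Mx1 were too dim.

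Liver RNA was measured on 12 Agilent whole mouse genome arrays, each with Abcb4(-/-) liver in one dye and Abcb4(+/+) liver in the other. The groups were Abcb4(-/-) mice fed cholic acid (CA) for 9 weeks, Abcb4(-/-) mice fed ursodeoxycholic acid (UDCA) for 9 weeks, and Abcb4(+/+) wild-type mice as the controls of each. Abcb4 is the canalicular transporter of phosphatidylcholine, and its loss gives a mouse model of sclerosing cholangitis. Per the design text, CA was meant to increase disease activity and UDCA, a bile acid with fewer hydroxyl groups, to decrease it. Per the design text, 5 livers per diet were put on 6 arrays without pooling. The labels are silent on doses, strain, sex, age and the diet of the wild-type mice. Every knockout liver came from a mouse given a bile acid, so that the genotype and the diet cannot be told apart in a ratio of knockout over wild type.

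Interferons are secreted proteins that bind receptors on most cell types and act through Janus kinases and STAT proteins. Type I and type III interferons activate a complex that holds STAT2 and IRF9 and binds the interferon-stimulated response element of antiviral genes, while the response to interferon gamma runs through the gamma-activated site. Among the genes switched on are sensors of viral RNA, enzymes and proteins that block viral replication, GTPases that attack vacuoles holding intracellular pathogens, and the proteasome subunits, peptide transporter and class I chains that display peptides to CD8 T cells.

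To show where the members carry these elements, 120 or 180 bases before the start site of 9 members are given from the RefSeq promoter table (GRCm38.p6). They are members that were called higher, called lower or not called with CA. In the first set, the capitals mark every match, on either strand, to GAAA, any 2 bases and GAAA again, a core of the interferon-stimulated response element. Matches that overlap run together. Isg15 lies on the minus strand at chr4:156200819-156200938, Ifit1 on the plus strand at chr19:34640769-34640888, Oas1a on the minus strand at chr5:120907526-120907645, Gbp2 on the plus strand at chr3:142620543-142620662, Gbp3 on the plus strand at chr3:142559924-142560043, and Igtp on the plus strand at chr11:58199436-58199555.
Isg15: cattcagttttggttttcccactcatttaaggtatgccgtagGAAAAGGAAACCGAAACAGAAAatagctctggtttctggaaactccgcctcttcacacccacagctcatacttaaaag
Ifit1: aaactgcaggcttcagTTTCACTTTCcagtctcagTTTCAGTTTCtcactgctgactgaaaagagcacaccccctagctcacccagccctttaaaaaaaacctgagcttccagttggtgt
Oas1a: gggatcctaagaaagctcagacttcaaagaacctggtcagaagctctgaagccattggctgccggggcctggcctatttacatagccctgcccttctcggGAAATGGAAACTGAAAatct
Gbp2: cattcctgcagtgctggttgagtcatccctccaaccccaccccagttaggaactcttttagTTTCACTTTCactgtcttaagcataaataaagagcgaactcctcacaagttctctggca
Gbp3: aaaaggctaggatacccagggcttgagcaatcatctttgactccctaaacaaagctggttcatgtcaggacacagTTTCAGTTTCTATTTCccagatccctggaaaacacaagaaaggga
Igtp: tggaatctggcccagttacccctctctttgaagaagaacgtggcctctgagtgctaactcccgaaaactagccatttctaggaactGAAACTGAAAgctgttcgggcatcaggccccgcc

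In the second set, the capitals mark matches to TTCNNNGAA, a core of the gamma-activated site that reads the same way on both strands. All 3 genes lie on the plus strand, Irf1 at chr11:53769894-53770013, Irf8 at chr8:120736178-120736357 and Psmb8 at chr17:34198075-34198194.
Irf1: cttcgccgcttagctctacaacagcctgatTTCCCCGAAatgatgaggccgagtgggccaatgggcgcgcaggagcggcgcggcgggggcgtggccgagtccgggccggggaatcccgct
Irf8: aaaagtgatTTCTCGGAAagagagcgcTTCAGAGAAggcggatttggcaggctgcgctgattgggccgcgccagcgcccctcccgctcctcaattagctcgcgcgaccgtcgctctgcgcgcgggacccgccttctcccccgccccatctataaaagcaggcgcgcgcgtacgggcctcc
Psmb8: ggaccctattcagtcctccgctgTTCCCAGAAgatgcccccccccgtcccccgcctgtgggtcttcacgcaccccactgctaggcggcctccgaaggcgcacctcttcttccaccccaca

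The table holds windows of 250 bases before to 50 bases after the start for 34 of the 42 genes. The response element core, sought on both strands, was found for 17 of these 34 genes (50%), against 3.99% of the 27025 genes in the table. TTCNNNGAA was found for 10 of the 34 (29.4%), against 9.55% of all genes. By role, the response element core was present for all 3 RNA sensor genes, for 3 of 5 genes of the OAS family, for 6 of 10 antiviral effectors and for all 3 GTPases with a window. That core was present for 0 of 3 immunoproteasome genes and 1 of 3 class I chains. The response element core was present for 7 of 17 genes called higher with CA, 2 of 3 called lower and 6 of 12 not called. For TTCNNNGAA these counts were 6 of 17, 1 of 3 and 3 of 12. A match is a stretch of letters and not a measured binding site, and a window without one says nothing of sites outside it.

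The arrays were read as a log2 ratio of knockout over wild type, in which 1 stands for a 2-fold higher intensity in the knockout. A gene was called at an adjusted p under 0.05 from limma, fitted over all 12 arrays with a dye term and adjusted over all 21688 tested probes. Between 31.6% and 68.4% of the spots of a channel were well above background, and up to 5.97% were saturated in green. The mutated gene was checked first. The dimmer Abcb4 probe was lower in the knockout on all 12 arrays, at -2.73 with CA and -1.77 with UDCA, and the brighter one on 10 of 12. No opposite-dye arrays of a diet were alike enough to be taken as the technical dye swap that the design text mentions, so each array counts as a replicate although 1 liver per diet was used on 2 arrays, and the p-values are too small to that extent. Arrays of both diets shared 2 of the 5 slides.

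With CA, 20 of the 39 tested genes rose and 5 fell. The risers were led by Ifi27l2a, Oasl2, Irf8, Gbp3 and Oasl1, at fitted log2 ratios of 2.51, 2.15, 1.96, 1.86 and 1.56. Ifitm1, Igtp, Stat2, Iigp1 and Mx2 fell. The 20 risers were 51.3% of the tested members, against 37.8% of the 15373 genes tested, and the 5 fallers were 12.8%, against 22.4% of all genes. The median member stood at 0.29 and the median gene at 0.10. Ifit2 and Ifi44 passed the filter on dim probes only through the CA-fed knockout, where they are high, and without them 18 of 37 rose. With the fitted dye effect taken off, at least 19 of the 20 risers stood above 0 and all 5 fallers below on each of the 4 slides with CA arrays. Before that step Mx2 stood at 0.12 on CA array 6, the only CA array of slide 4. Slide 3 also held 1 CA array, and these arrays made the calls, so this is a description. When the arrays were centred on their median in place of loess, the median of all tested probes moved from 0.05 to 0.23, and 15 members were called higher and 0 lower. In whole liver, a change in RNA per cell and a change in the number of cells of a type cannot be told apart.

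With UDCA, 13 members rose and 2 fell. Ifi27l2a, Oasl1 and Irf8 led again, at 2.19, 1.45 and 0.90, and the fallers were Igtp and Mx2. The risers were 33.3% of the tested members, against 17.2% of all genes, and the fallers 5.13%, against 8.77%. The median member stood at 0.27 and the median gene at 0.04. With the fitted dye effect taken off, all 13 risers stood above 0 and both fallers below on each of the 3 slides that held UDCA arrays. Before that step Mx2 stood at 0.09 on UDCA array 6, the only array of slide 5. These arrays also made the calls, so this is a description. After median centring, 5 members were called higher and 0 lower. Of the 39 genes, 12 were called higher in both diets, 2 lower in both and 13 in neither. The share of all genes called in both diets was not counted, so these numbers are a description only. The 13 were Irf9, Oas2, Ifit3, Isg15, Rsad2, Ifitm3, Ifi35, Psmb10, Tap1, Tap2, B2m, H2-K1 and H2-D1.

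**Figure D1:**
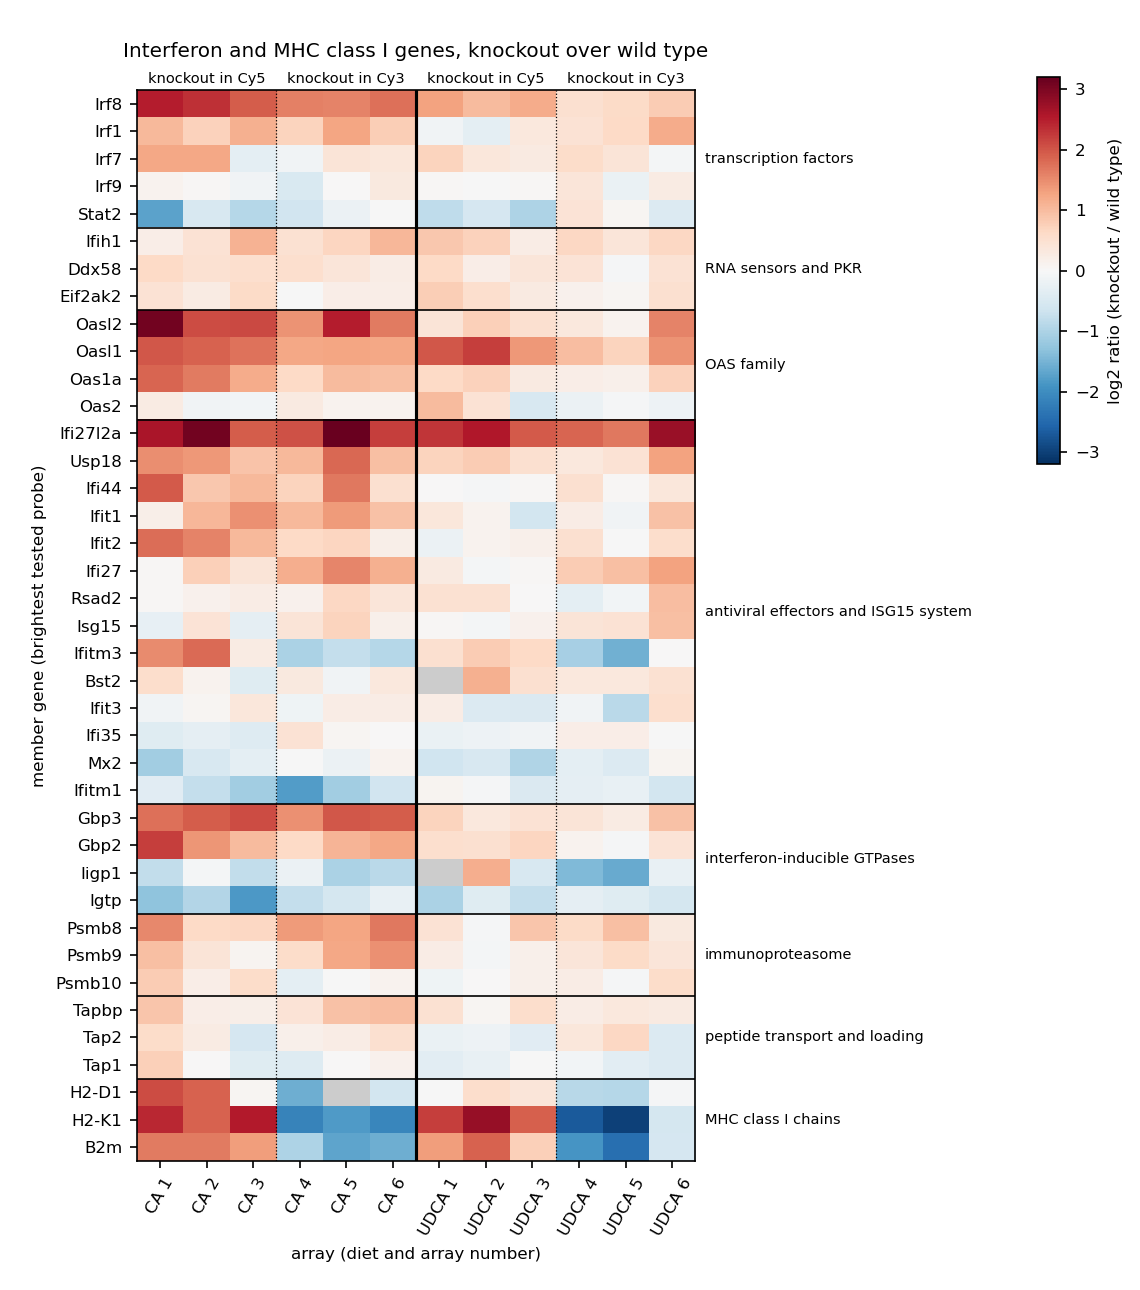
Log2 ratio of knockout over wild type on each of the 12 arrays (columns, CA then UDCA) for the 39 tested genes (rows, by role and then by their ratio with CA), in red where higher and in blue where lower in the knockout; grey cells were flagged by the scanner software. Irf8, Oasl1 and Ifi27l2a were red on all 12 arrays, while B2m and H2-K1 turned from red to blue with the dye of the knockout.

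Markers of leukocytes and of bile duct cells were also higher in the knockout. The 4 pan-leukocyte markers were all called higher with CA, with a median log2 ratio of 1.93, and 3 of 4 with UDCA, with a median of 0.84. Their summed intensity ranged from 14651 to 33436 in CA-fed knockout against 2324 to 6436 in wild type on the same arrays, and from 4104 to 5146 in UDCA-fed knockout against 1831 to 3004. All 6 cholangiocyte markers were called higher in both diets, with medians of 2.97 and 1.41. Of 12 macrophage markers, 5 rose and 5 fell with CA, and 8 rose and 2 fell with UDCA. With CA the resident Kupffer cell markers Clec4f (-3.37) and Vsig4 (-1.54) were among the fallers and Ccr2 (4.15), the chemokine receptor of recruited monocytes, was among the risers. Of 7 plasmacytoid dendritic cell markers 4 rose with CA and 1 with UDCA, of 7 tested T and NK cell markers 4 rose and 1 fell with CA and 1 rose with UDCA, and of 4 tested B and plasma cell markers 4 rose with CA and 2 with UDCA. Of all genes tested, 37.8% rose and 22.4% fell with CA, and 17.2% rose and 8.77% fell with UDCA. The 5 of 12 macrophage markers higher with CA lay near the share of all genes. So did the 1 of 7 higher with UDCA among the plasmacytoid and among the T and NK cell markers. The cytotoxic cell markers Gzma and Prf1 and the B cell marker Cd79a were not well above background on any array. Of 7 hepatocyte markers 1 fell and 0 rose in each diet, but 6 of the probes were saturated on 2 to 5 of 6 channels of every group, and 3 dimmer Apob probes were called lower with CA, so a level of hepatocyte RNA cannot be read from them. How much of any member's ratio these cells account for was not tested.

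Among the transcription factors, Irf8, Irf1 and Irf7 rose with CA and Stat2 fell. Irf8 is a factor of myeloid and B cells needed to form monocytes and dendritic cells. Its intensity (log2, probe at chr8:119391398-119391457 in mm7) had a lowest, median and highest value of 12.26, 12.80 and 13.24 in CA-fed knockout, against 10.16, 10.80 and 11.38 in wild type. In UDCA-fed knockout the values were 10.73, 10.92 and 11.15, against 9.77, 10.05 and 10.26 in wild type. The knockout and wild-type ranges did not overlap in either diet. The array ratios ran from 1.59 to 2.5 with CA (fitted 1.96, 95% confidence interval 1.76 to 2.16, adjusted p = 7.21e-10) and from 0.51 to 1.28 with UDCA (fitted 0.90, 0.70 to 1.10, adjusted p = 5.8e-06). A second, dimmer Irf8 probe was called with CA at 0.88 and not with UDCA at 0.17.

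Irf1, a factor of the interferon gamma response, ranged from 13.09 to 14.38 in CA-fed knockout (median 13.98), against 12.35 to 13.24 in wild type (median 12.92). Its ratio was above 0 on 6 of 6 CA arrays, between 0.72 and 1.27 (fitted 0.95, 0.64 to 1.25, adjusted p = 4.41e-05), although the knockout spot was saturated on 3 of them. With UDCA it lay on both sides of 0, between -0.32 and 1.19, and was not called (adjusted p = 0.0804). The second Irf1 probe was not called in either diet, at 0.24 and 0.05. Irf7, which amplifies type I interferon production, was called with CA at 0.47 (0.10 to 0.85, adjusted p = 0.0311) but was above 0 on 4 of 6 arrays, between -0.32 and 1.25. Its call was lost without CA array 1, 2, 5 or 6, at values of 0.33 to 0.46.

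Stat2 and Irf9 belong to the DNA-binding complex of the type I response. Stat2 ranged from 9.26 to 10.17 in CA-fed knockout (median 9.76), against 9.99 to 10.97 in wild type (median 10.39). It fell by 0.65 on the log2 scale with CA (0.34 to 0.97, adjusted p = 0.00136), being lower on 6 of 6 arrays. Its CA ratios ran from -1.70 to -0.50 with the knockout in Cy5 and from -0.62 to -0.003 in Cy3. The dye effect of Stat2 was called (adjusted p = 0.0219 in limma). With UDCA Stat2 stood at -0.38 (adjusted p = 0.0761), lower on 4 of 6. Irf9 stood at -0.02 with CA (-0.26 to 0.21) and at 0.08 with UDCA (-0.15 to 0.32), and neither was called. A dimmer Irf9 probe was called lower with CA, at -0.32. On the brightest probes, Stat2 was thus called with CA in the opposite direction from Irf8 and Irf1, and Irf9 was not called.

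All 3 sensors of viral RNA rose in both diets, against 37.8% of all genes with CA and 17.2% with UDCA. Ifih1 (MDA5) and Ddx58 (RIG-I) bind foreign RNA in the cytosol, and Eif2ak2 (PKR) is a kinase that halts translation when it binds double-stranded RNA. Ifih1 rose by 0.67 with CA (0.40 to 0.94, adjusted p = 0.00031) and by 0.59 with UDCA (0.32 to 0.86, adjusted p = 0.00294), and was higher in the knockout on 12 of 12 arrays. Its ratios ran from 0.22 to 1.12 and from 0.24 to 0.86. Ddx58 stood at 0.47 and 0.35 and Eif2ak2 at 0.29 and 0.39, all called. For Ifih1 and Ddx58, dimmer probes were not called in one or both diets. The UDCA call of Ddx58 was lost without UDCA array 1, 4 or 6 (0.30 to 0.31), and the CA call of Eif2ak2 without CA array 3 or 5 (0.26 to 0.28).

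Of the 4 tested genes of the OAS family, 3 rose in each diet, against 37.8% of all genes with CA and 17.2% with UDCA. Oas1a makes the short RNA messenger that activates RNase L, while Oasl1 and Oasl2 are OAS-like proteins, Oasl1 being known in mice as a brake on Irf7 translation. Oasl2 (probe at chr5:114132992-114133051 in mm7) ranged from 10.04 to 11.30 in CA-fed knockout (median 10.62), against 7.94 to 9.14 in wild type (median 8.49), with no overlap. In UDCA-fed knockout it ranged from 8.73 to 9.67 (median 9.10), against 8.07 to 8.92 in wild type (median 8.62), with overlap. The ratio with CA ran from 1.43 to 3.09 (fitted 2.15, 1.73 to 2.57, adjusted p = 2.73e-07), and with UDCA from 0.11 to 1.59 (fitted 0.62, 0.20 to 1.04, adjusted p = 0.0323). The highest UDCA value came from array 6, without which the ratio was 0.38 and was not called, and the call was also lost without UDCA array 2, 3 or 4.

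The ratio of Oasl1 was above 0 on all 12 arrays. It ran from 1.23 to 1.98 with CA (fitted 1.56, 1.31 to 1.81, adjusted p = 3.6e-08) and from 0.70 to 2.22 with UDCA (fitted 1.45, 1.20 to 1.70, adjusted p = 4.93e-07). Oas1a ran from 0.63 to 1.86 with CA (fitted 1.22, adjusted p = 7.42e-07) and from 0.17 to 0.73 with UDCA (fitted 0.46, adjusted p = 0.0125), and the UDCA call was lost without UDCA array 6 (0.35). Oas2 stood at 0.09 in each diet and was not called. Oas3 was well above background on 4 of 6 arrays in CA-fed knockout and on 0 in wild type and in both channels of the UDCA arrays, which gives at least 1.25-fold more with CA and no test. Here a dim side counts at the lowest signal among probes well above background, or at its own where higher. Oas1g was not well above background on any CA array.

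**Figure D2:**
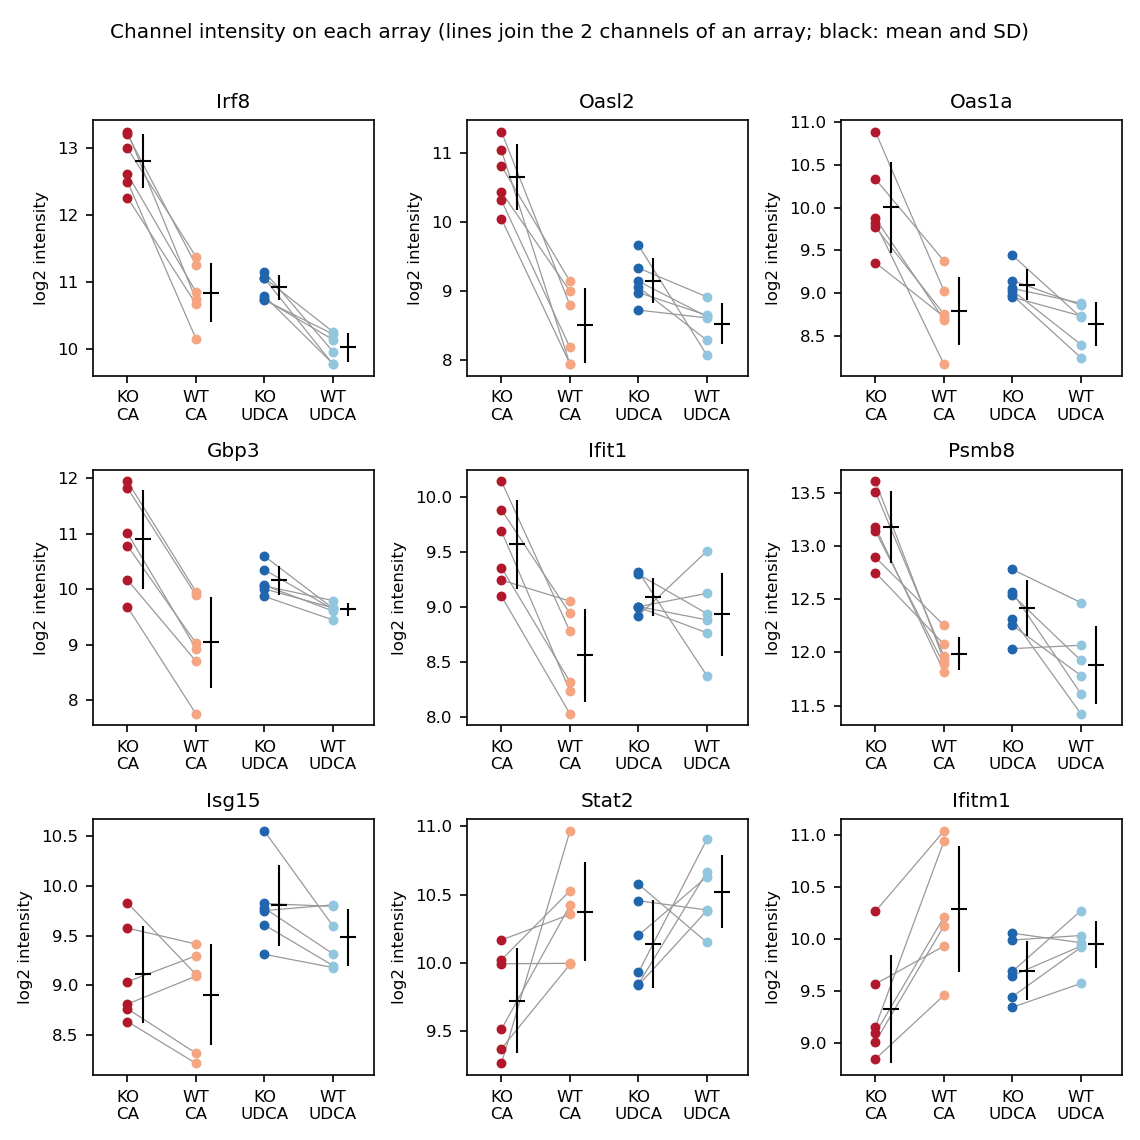
Log2 intensity of the knockout and wild-type channel on each array for 9 members, one point per array and channel, with lines joining the channels of an array and black marks for the mean and SD of 6 arrays. WT CA and WT UDCA are the wild-type channels of the CA and UDCA arrays. For Irf8, Oasl2 and Psmb8, CA-fed knockout lay above wild type with no overlap, whereas Isg15 overlapped in both diets and Stat2 and Ifitm1 were lower in CA-fed knockout.

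Of the 14 tested antiviral effectors and genes of the ISG15 system, 6 rose and 2 fell with CA, and 4 rose and 1 fell with UDCA. The CA shares, 42.9% higher and 14.3% lower, lay near the 37.8% and 22.4% of all genes. Among the CA risers, Ifit2 and Ifi44 passed the filter on dim probes only through the CA-fed knockout, where they are high. Their part of this count is thus not independent of the filter. With UDCA the shares were 28.6% higher and 7.14% lower, against 17.2% and 8.77% of all genes. Ifi27l2a and Ifi27 encode small hydrophobic proteins of intracellular membranes. Ifi27l2a ranged from 11.30 to 12.43 in CA-fed knockout (median 11.84), against 8.29 to 10.21 in wild type (median 9.38), and from 11.56 to 12.31 in UDCA-fed knockout (median 11.74), against 8.99 to 10.21 (median 9.62). No knockout value overlapped with wild type, and the fitted ratios were 2.51 (2.13 to 2.88, adjusted p = 1.79e-08) and 2.19 (1.82 to 2.57, adjusted p = 4.71e-07). The other Ifi27l2a probes gave 2.69 and 2.51 with CA but 0.84 and 0.75 with UDCA, all called, so that the probes disagreed about UDCA. Ifi27 stood at 0.84 with CA and 0.55 with UDCA, both called, with a dye effect (ratios of 0.81 to 1.55 with the knockout in Cy3 and of -0.07 to 0.75 with it in Cy5).

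Usp18 removes ISG15 from proteins and damps interferon receptor signalling. Its ratio ranged from 0.91 to 1.83 with CA (fitted ratio 1.27, 0.97 to 1.57, adjusted p = 2.1e-06) and from 0.34 to 1.29 with UDCA (fitted 0.68, 0.38 to 0.99, adjusted p = 0.00231), above 0 on 12 of 12 arrays. Ifit1 and Ifit2 bind viral RNA and restrict its translation. Over the CA arrays the ratio of Ifit1 had a lowest, median and highest value of 0.19, 1.05 and 1.45, and that of Ifit2 of 0.18, 0.86 and 1.79. They rose with CA, by 1.01 (0.65 to 1.37, adjusted p = 0.000116) and 0.99 (0.63 to 1.34, adjusted p = 0.000126), while Ifit3 of the same family stood at 0.11 (-0.21 to 0.43) and was not called. With UDCA the 3 genes stood at 0.16, 0.19 and -0.19, none called. A dimmer Ifit2 probe was also called with CA, at 0.34. The brighter Ifit2 probe was well above background on 6 CA-fed knockout channels, against 4 in wild type. Ifi44, an interferon-induced protein of the cytoplasm, rose by 1.13 with CA (0.78 to 1.48, adjusted p = 3.17e-05) with array ratios from 0.51 to 1.96, and was well above background on 6 CA-fed knockout channels, against 2 in wild type. With UDCA its wild-type channel was never well above background and its knockout channel was on 2 arrays. The fitted ratio with UDCA was 0.15 (-0.20 to 0.50, adjusted p = 0.563) and was not called.

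Isg15, the ubiquitin-like protein that gives the system its name, was not called in either diet. Its intensity was 8.63 to 9.83 in CA-fed knockout (median 8.92), against 8.21 to 9.42 in wild type (median 9.10), and 9.31 to 10.55 in UDCA-fed knockout (median 9.77), against 9.18 to 9.81 (median 9.46). The ratios were 0.20 (-0.05 to 0.45, adjusted p = 0.153) and 0.32 (0.07 to 0.57, adjusted p = 0.061). Rsad2 (viperin), an enzyme that makes a chain-terminating nucleotide, stood at 0.26 and 0.27, with intervals that include 0. Dimmer Rsad2 probes were not called either.

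Ifitm1, a membrane protein that blocks viral entry, fell with CA. It ranged from 8.84 to 10.27 in CA-fed knockout (median 9.12), against 9.46 to 11.04 in wild type (median 10.17), and was lower on 6 of 6 arrays, with a fitted ratio of -0.96 (-1.26 to -0.66, adjusted p = 3.27e-05). With UDCA it stood at -0.25 (-0.55 to 0.05, adjusted p = 0.222). Mx2, a dynamin-like GTPase, fell by 0.34 with CA (adjusted p = 0.0202) and by 0.46 with UDCA (adjusted p = 0.00815), lower on 5 of 6 arrays in each diet, and the CA call was lost without CA array 1 or 5 (-0.31 to -0.23). Mx1 was well above background on 4 CA-fed knockout channels, 1 wild-type channel and none of the UDCA arrays. Bst2 (tetherin), which holds budding viruses at the cell surface, was called with UDCA at 0.58 (0.26 to 0.89, adjusted p = 0.0107) and not with CA at 0.13. It was measured on 5 UDCA arrays and saturated on 3 knockout channels of each diet, and without UDCA array 2 it stood at 0.42 and was not called. Ifi35 stood at -0.09 and -0.01.

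Of the 4 interferon-inducible GTPases among the members, 2 rose and 2 fell with CA, against 37.8% and 22.4% of all genes. Gbp2 and Gbp3 are guanylate-binding proteins, and Igtp and Iigp1 are immunity-related GTPases, all known to act on membranes around intracellular pathogens. Gbp3 (probe at chr3:142466047-142466106 in mm7) had ratios of 1.47 to 2.08 with CA (median 1.93, fitted 1.86, 1.62 to 2.09, adjusted p = 3.65e-09) and of 0.26 to 0.94 with UDCA (median 0.44, fitted 0.52, 0.29 to 0.76, adjusted p = 0.00261). Gbp2 had ratios of 0.63 to 2.21 with CA (fitted 1.27, 0.98 to 1.55, adjusted p = 1.26e-06) and of -0.03 to 0.68 with UDCA (fitted 0.38, adjusted p = 0.0561, not called). Igtp was lower on all 12 arrays, with ratios of -1.83 to -0.24 with CA (fitted -0.94, -1.22 to -0.66, adjusted p = 1.84e-05) and of -1.02 to -0.28 with UDCA (fitted -0.57, -0.84 to -0.29, adjusted p = 0.00478). The Gbp genes and Igtp, whose promoters above each hold the response element core, thus moved in opposite directions with CA. The Igtp stretch also holds a match to TTCNNNGAA that is not marked there, and the windows of Gbp2 and Gbp3 hold none. Iigp1 was called lower with CA at -0.62 (-1.14 to -0.10, adjusted p = 0.0386), but it was saturated in green on all 12 arrays and its call was lost without CA array 1, 2, 3, 5 or 6 (-0.66 to -0.50).

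The immunoproteasome subunits replace the catalytic subunits of the standard proteasome and favour peptides that fit class I. Psmb8 ranged from 12.75 to 13.60 in CA-fed knockout (median 13.16), against 11.82 to 12.25 in wild type (median 11.95), with no overlap. In UDCA-fed knockout it ranged from 12.04 to 12.78 (median 12.43), against 11.42 to 12.47 (median 11.85). The fitted ratios were 1.19 (0.88 to 1.5, adjusted p = 4.81e-06) and 0.54 (0.23 to 0.84, adjusted p = 0.0131), and a second probe gave 1.25 and 0.46, both called. The UDCA call of the first probe was lost without UDCA array 3 or 5 (0.42 to 0.48). Psmb9 rose by 0.79 with CA (0.52 to 1.07, adjusted p = 8.33e-05), with array ratios from 0.09 to 1.47, and stood at 0.28 with UDCA (adjusted p = 0.13). Psmb10 was not called, at 0.23 and 0.14, and its spot was saturated in green on 7 of 12 arrays. The standard subunits that these replace, Psmb5, Psmb6 and Psmb7, stood at 0.03, 0.00 and -0.25 with CA and were not called. The ratios of Psmb5 and Psmb7 were below 0 with the knockout in Cy5 and above 0 in Cy3, in both diets. With CA, Psmb5 ran from -1.01 to -0.12 in Cy5 and from 0.41 to 0.66 in Cy3. The values of Psmb5 and Psmb7 are thus uncertain.

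Of the 3 genes of peptide transport and loading, 1 rose with CA and 0 with UDCA. The share with CA, 33.3%, lay near the 37.8% of all genes. Tapbp (tapasin), which holds class I at the transporter, rose by 0.61 with CA (0.35 to 0.87, adjusted p = 0.000537) and stood at 0.33 with UDCA (adjusted p = 0.0613), above 0 on 12 of 12 arrays, but its dimmer probe stood at 0.04 and -0.23. Tap1 and Tap2 form the transporter that carries peptides into the endoplasmic reticulum. Tap1 stood at 0.02 with CA (-0.26 to 0.30), with intensities of 8.19 to 9.60 in CA-fed knockout and 7.85 to 9.59 in wild type, and at -0.24 with UDCA (-0.52 to 0.04). Tap2 stood at 0.21 and -0.03. Tap1 lies head to head with Psmb9 on chromosome 17 in RefSeq, with promoter windows that overlap. Psmb9 was called with CA and Tap1 was not, although the difference between these genes was not tested.

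The class I chains could not be read from their brightest probes. B2m encodes the light chain, and H2-K1 and H2-D1 encode heavy chains of classical class I molecules, whose sequences are alike enough that a probe may bind the transcript of another chain. The brightest B2m probe was saturated in green on all 12 arrays and had ratios of 0.76 to 1.88 where the knockout was in Cy5 and of -2.42 to -0.54 where it was in Cy3. The brightest H2-K1 probe behaved the same way, with 1.90 to 2.79 and -2.99 to -0.57, and was saturated in green on 12 and in red on 3 arrays. H2-D1 was saturated in green on 10 arrays. The fitted ratios with CA were 0.07 for B2m (-0.34 to 0.49), 0.14 for H2-K1 (-0.35 to 0.63) and 0.21 for H2-D1 (-0.40 to 0.83, 5 arrays measured), and with UDCA they were -0.15, 0.11 and -0.15, none called. With the spots saturated, these values do not show whether class I transcripts changed.

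The least saturated probes of B2m and H2-K1 had ratios that overlapped between the dye orientations. The unsaturated B2m probe was called with CA at 0.41 (adjusted p = 0.0094), with array ratios from 0.01 to 0.82, and stood at 0.12 with UDCA. The H2-K1 probe with least saturation stood at 0.26 and 0.10, was not called, and ranged from -0.87 to 1.05 over the CA arrays. Ifitm3, saturated in green on 11 arrays, likewise had ratios of 0.27 to 1.80 with the knockout in Cy5 and of -1.53 to 0.02 with it in Cy3. The dye effect was called for the brightest probe of 10 of the 39 tested genes, and for 6 of them, Ifi27 and Ifi35 among these, the ratios of the dye orientations did not overlap.

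**Figure D3:**
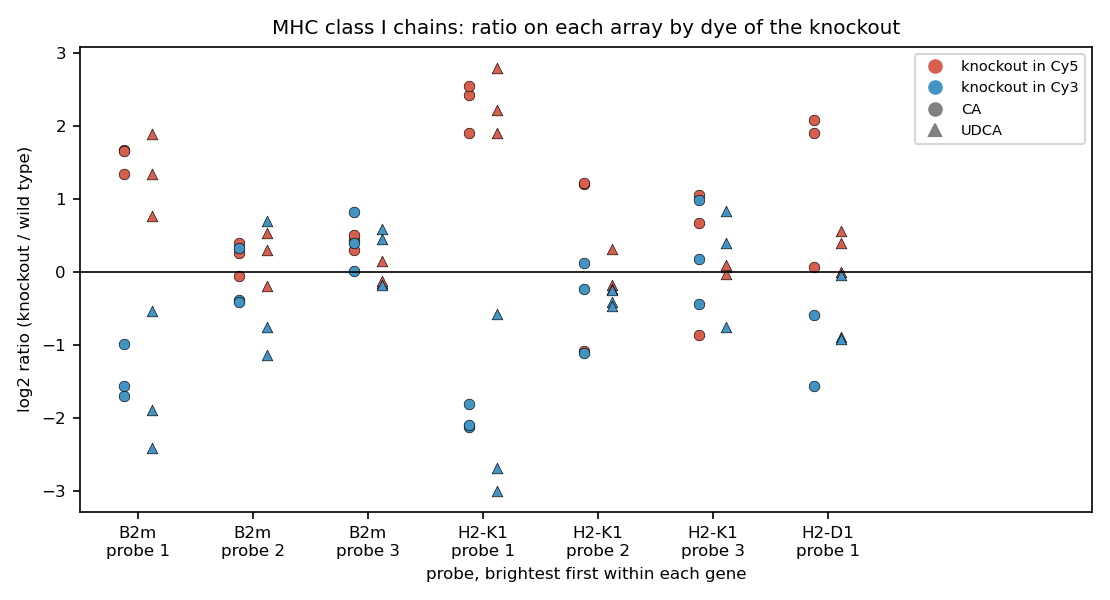
Log2 ratio of knockout over wild type on each array for the 7 tested probes of B2m, H2-K1 and H2-D1, coloured by the dye of the knockout, with circles for CA and triangles for UDCA. In the brightest probe of B2m and of H2-K1 all points with the knockout in Cy5 lay above 0 and all with it in Cy3 below, and in the dimmest B2m probe the colours mixed.

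**Figure D4:**
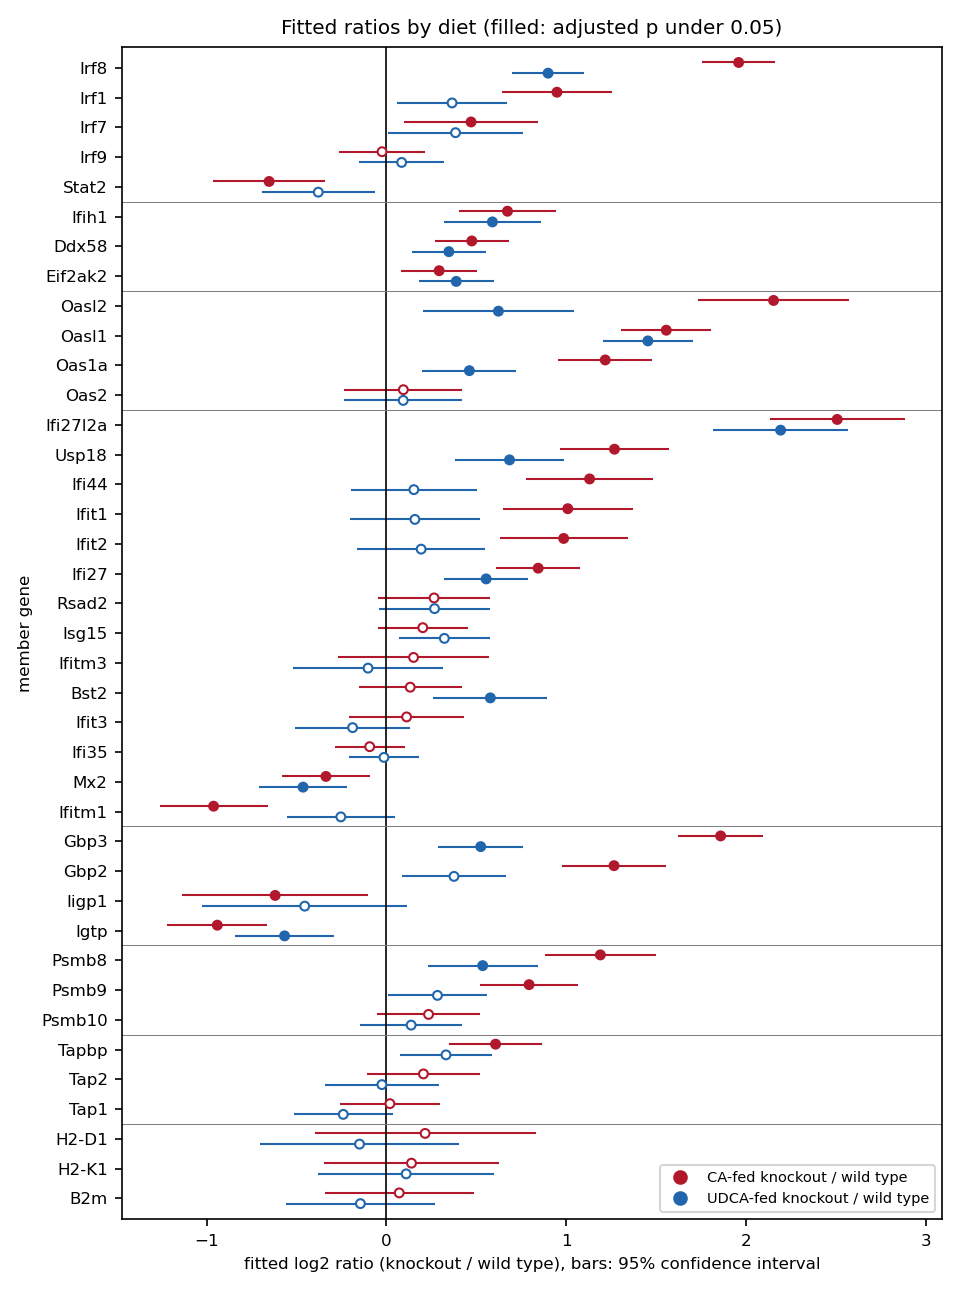
Fitted log2 ratio of knockout over wild type with 95% confidence interval for the 39 tested genes, with CA (red) and UDCA (blue), grouped by role; filled points passed the adjusted p of 0.05. The red points of Irf8, Oasl2, Gbp2 and Gbp3 lay right of the blue ones, while those of Oasl1 and the RNA sensors were side by side.

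The diets were then compared, as the CA ratio minus the UDCA ratio. The dose of either bile acid is not given and each side was measured against its own wild-type channel, so that the difference is indirect. After median centring 3 members were called higher and 0 lower in this comparison, and with slides as a fixed block 6 were higher. With loess and no slide term, 12 members were called higher and 1 lower, which is 30.8% and 2.56% of those tested, against 18.8% and 8.88% of all genes. Without Ifit2 and Ifi44, 10 of 37 were higher. The median difference was 0.23 over the members and 0.08 over all genes. The 4 pan-leukocyte markers were all called higher in this comparison too, with a median of 1.09, as were 5 of 6 cholangiocyte markers, and their part was not tested.

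Oasl2 had the largest difference among the members' brightest probes, 1.53 (0.93 to 2.13, adjusted p = 0.00122), followed by Gbp3 with 1.33 (1.0 to 1.67, adjusted p = 5.63e-05) and Irf8 with 1.06 (0.78 to 1.34, adjusted p = 9.08e-05). For Gbp3 and Irf8 every CA array lay above every UDCA array, which was so for 7.08% of all genes. No member had every CA array below every UDCA array, against 3.14% of all genes. The next were Gbp2 with 0.89 (adjusted p = 0.00342), Ifit1 with 0.85 (adjusted p = 0.0167) and Oas1a with 0.76 (adjusted p = 0.00529). Ifi44 and Ifit2 were also called higher, but their size is uncertain because the UDCA spots were often not well above background, for Ifi44 on 2 knockout and 0 wild-type channels and for Ifit2 on 4 and 2. Psmb8 at 0.65, Usp18 at 0.58, Irf1 at 0.58 and Psmb9 at 0.51 had adjusted p of 0.0275, 0.0423, 0.0446 and 0.0495. Ifitm1 was the one member called lower, at -0.71 (-1.13 to -0.28, adjusted p = 0.0169). The calls of Psmb8, Usp18, Irf1, Psmb9 and Ifit2 were lost when single arrays were left out, Psmb9 without 10 of the 12 arrays (0.41 to 0.55), Irf1 without 9 (0.47 to 0.62), Usp18 without 8 (0.46 to 0.61), and Psmb8 (0.54 to 0.64) and Ifit2 (0.67 to 0.75) without 4 each.

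Not every member that rose in both diets was called in the difference. For Oasl1 the difference was 0.10 (-0.25 to 0.46), for Ifih1 0.08 (-0.30 to 0.46), for Ddx58 0.13 (-0.16 to 0.42) and for Eif2ak2 -0.10 (-0.39 to 0.20), so that differences beyond those bounds are outside the 95% intervals. For Ifi27l2a the answer depended on the probe, at 0.31 and not called for the brightest probe and at 1.86 and 1.76, both called, for the others. On the slides that held both diets, slides 3 and 4, all 13 called differences had the same sign after the fitted dye effect was taken off, but each slide held 1 CA array and these arrays are among those that made the calls, so this is a description.

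**Figure D5:**
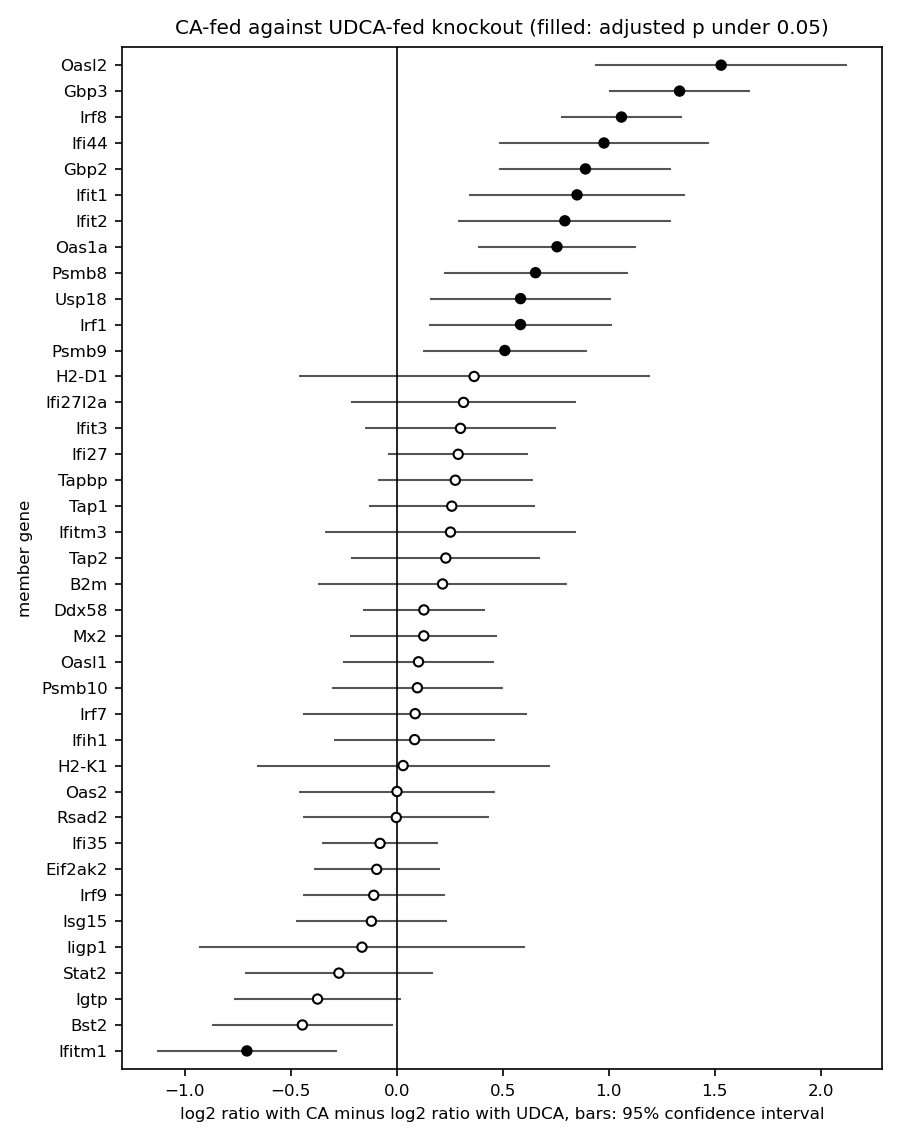
Log2 ratio with CA minus log2 ratio with UDCA for the 39 tested genes, sorted, with 95% confidence intervals; filled points passed the adjusted p of 0.05. Oasl2, Gbp3 and Irf8 stood at 1.53, 1.33 and 1.06, and Ifitm1 was the filled point below 0.

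The genes that make, receive and carry the signal were listed apart from the members. Of 14 ligand genes only Il18 and Il27 were bright enough to be tested, and the type I, type III and gamma interferon genes were not. Il27, a cytokine of myeloid cells, fell by 1.23 with CA. Of 15 receptor and JAK-STAT genes 11 rose with CA, against 37.8% of all genes, and 4 with UDCA, against 17.2%, and 0 fell. They were led by Il10rb (2.57 with CA, 1.18 with UDCA), Ifngr1 (2.20 and 0.99), Ifnlr1 (1.92 and 1.30) and Ifngr2 (1.77 and 0.70), the chains of the type III and gamma receptors. Of the type I receptor, the chain Ifnar1 stood at 0.29 and -0.10 in the 2 diets, neither called.

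Genes that detect nucleic acids and lead to interferon went both ways, with 6 of 15 higher and 2 lower with CA, and 2 higher and 3 lower with UDCA. The share called higher with CA lay near the 37.8% of all genes. Tlr7 (1.54), Zbp1 (1.5) and Cgas (1.02), all sensors, rose with CA, and Mavs (-1.34), the adaptor through which Ifih1 and Ddx58 signal, fell on 6 of 6 arrays. Irf3, the factor that first switches on interferon genes, stood at 0.00 and 0.02. Its ratios went with the dye in both diets, below 0 with the knockout in Cy5 and above 0 in Cy3. With CA they were -1.04 to -0.45 in Cy5 and 0.42 to 1.05 in Cy3, so whether Irf3 changed cannot be read. Irf5 stood at 0.64 with CA and at -0.58 with UDCA, both called.

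Of 23 further interferon-stimulated genes 18 rose and 2 fell with CA, and 9 rose and 0 fell with UDCA. Of all genes tested, 37.8% rose and 22.4% fell with CA, and 17.2% rose and 8.77% fell with UDCA. Tor3a stood at 2.04 and 0.96, Ifi204 at 1.53 and 0.60, and Uba7, the enzyme that activates ISG15, at 1.37 and 0.70, all called. Ly6e, a surface protein that limits coronavirus entry, rose by 1.75 and 2.18. Ube2l6, the conjugating enzyme of ISG15, fell by 0.86 with CA, and Parp9 fell by 0.42. Of 14 further genes induced by interferon gamma 7 rose and 2 fell with CA, and 2 rose and 1 fell with UDCA. The share higher with UDCA lay near the 17.2% of all genes. The GTPase Tgtp1 rose by 2.00 with CA and Irgm2, another GTPase, fell by 0.50. The chemokine Cxcl10 was called at 2.12 with CA, where 4 arrays measured it and all 4 were higher, and at 1.52 with UDCA. Cxcl9, a chemokine of the same receptor, stood at -0.25 with CA and was not called, and Cxcl11 fell by 0.64.

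Of 19 further class I genes 2 rose and 0 fell in each diet, against 37.8% of all genes higher with CA and 17.2% with UDCA. For H2-Q1, H2-Q2, H2-Q7, H2-Q10 and H2-T23 the probe was often saturated and its ratio was above 0 where the knockout was in Cy5 and below 0 where it was in Cy3, so their part of this count cannot be read. For H2-Q10 the CA ratios were 1.89 to 2.42 in Cy5 and -2.48 to -2.30 in Cy3. H2-M3, a nonclassical heavy chain that presents formylated peptides, rose by 1.59 with CA and 0.45 with UDCA on a probe that was higher on 6 of 6 CA arrays. Psme1, an activator of the proteasome, was called at 0.38 with CA but was above 0 on 3 of 6 arrays. Its CA ratios went with the dye, at 0.89 to 1.54 in Cy5 and -0.37 to -0.31 in Cy3, so this call is uncertain. H2-T22 rose by 0.43 with UDCA. The chaperones Calr, Canx and Pdia3 stood between 0.06 and 0.31 with CA and were not called. The CA ratios of Canx also went with the dye, at 0.30 to 0.64 in Cy5 and -0.27 to -0.24 in Cy3. Nlrc5, the coactivator of class I genes, was too dim to be tested.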

How the data were processed

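Liver RNA of Abcb4(-/-) and Abcb4(+/+) mice was hybridised to 12 two-colour Agilent arrays, 6 per diet, with the knockout in Cy5 on 3 arrays and in Cy3 on 3 of each diet. Spot intensity values were extracted with Feature Extraction 9.5.3, per the file headers, and deposited without further normalization. The authors also deposited a table of log2 ratios, whose normalization the labels do not describe; it was matched to the arrays by spot order and its direction was set per array by comparison with the scanner values, so it served as an alternative only. All probe positions are mm7, per the file headers.

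From the scanner intensities, background was corrected with normexp (offset 50), each array was normalized by loess with control spots at weight 0, flagged outlier spots (0.891% of values) were set to missing, and spots of a probe were averaged. Probes were kept when well above background on at least 5 of 6 arrays in one channel of one diet, and 21688 of 41174 were tested. Missing spots were left out of a gene's fit and not imputed. limma 3.58.1 in R 4.3.3 was fitted to the log2 ratio of knockout over wild type with a term per diet and a dye term, and p-values were adjusted by the Benjamini-Hochberg method over all tested probes. A gene was read from its brightest tested probe. Levels are log2 intensity per channel after loess and Aquantile scaling, and the number of arrays limits their precision. The fit was tested on simulated data.

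Groups were taken from the labels. The labels do not say which arrays are the technical dye swap, nor whether wild-type livers were shared between arrays. No opposite-dye arrays of a diet had residuals correlated above 0.3 (highest 0.109 with CA and 0.0929 with UDCA), so none were merged. Array numbers shared by the diets did not pair them: the correlations of same-numbered arrays ran from -0.57 to 0.13. The members and gene lists were chosen with earlier results of these data known. Every member is accounted for, with values over arrays for those called on 6 of 6 arrays with the largest changes, those called between the diets, the brightest of each role and a set given whatever its values (Stat2, Irf7, Isg15, Oasl2, Gbp3, B2m, H2-K1, H2-D1, Psmb8 and Tap1). Of each other list, up to 4 called genes with the largest change were named, besides Ifnar1, Ifngr1, Cxcl9, Cxcl10, Irf3 and Nlrc5; Irf5, Ube2l6, Parp9, Irgm2, Cxcl11, the chaperones, the standard proteasome subunits and the named cell markers were chosen after their values were seen. One item is not reported here. The alternatives tried were other signals, normalizations, filters, probe rules and slide or replicate terms, and leaving out each array.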

Additional observations from a re-analysis of the deposited data

Results flagged for a closer look

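The difference between the diets, tested as the CA ratio minus the UDCA ratio in limma, passed an adjusted p of 0.05 for 13 members. The log2 differences were 1.53 for Oasl2, 1.33 for Gbp3, 1.06 for Irf8, 0.98 for Ifi44, 0.89 for Gbp2, 0.85 for Ifit1, 0.79 for Ifit2, 0.76 for Oas1a, 0.65 for Psmb8, 0.58 for Irf1, 0.58 for Usp18, 0.51 for Psmb9 and -0.71 for Ifitm1. Ifi44 and Ifit2 passed the filter on dim probes only through the CA-fed knockout, and the wild-type channel of Ifi44 was never well above background on the UDCA arrays, so the sizes of these differences are uncertain. The call of Oasl2 held under each alternative that gave it a value, which leaves out the stricter filter on dim probes, and the other 12 calls were each lost under at least 1 alternative.

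Bst2 had 1 array far from the others of its diet. Its log2 ratio was 1.13 on UDCA array 2, against 0.34 to 0.51 on the other 4 UDCA arrays that measured it. Over the members 78 groups of arrays were examined in this way and 1 stood out, while chance gives about 1 in 20.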

How the results depend on the processing

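No member value that was called changed sign under any alternative tried, and H2-D1 with CA, which was not called at 0.21, was -0.54 with slides as a fixed block (adjusted p = 0.0268). Values not called became called in the same direction 34 times under alternatives other than leaving out 1 array, and 8 times without 1 array. B2m and Psmb10 with CA were called higher without saturated spots and on the deposited log2 values. H2-K1 with CA was called higher on the deposited values. Of 53 called member values, median centring ended 30 calls and the fixed slide block 14. Calls held under each alternative that gave the gene a value for 15 of 25 members with CA, 4 of 15 with UDCA (Ifi27l2a, Irf8, Oasl1 and Usp18) and 1 of 13 between the diets; the stricter filter gave no value for Oasl2, Oas1a, Ifit1, Ifit2, Usp18 and Ifi44. Median centring in place of loess gave 15 members higher and 0 lower with CA, 5 and 0 with UDCA, and 3 and 0 between the diets, and 4939 and 1202, 1866 and 110, and 689 and 126 of all probes, against 7416 and 5503, 3265 and 1820, and 3561 and 2282. The stricter filter on dim probes, which tests fewer genes, left 12 members higher with CA and 5 between the diets, and 3229, 1971 and 1491 probes higher with CA, with UDCA and between the diets. Without a dye term 3 members were lower with CA. Agilent's processed signals gave 4 members and 2833 probes lower with UDCA. The fixed slide block gave 4 members lower with UDCA, and 6 members and 2365 probes higher between the diets. The deposited log2 values gave 3588 probes lower between the diets. At least a 1.5-fold change left 6 members higher and 0 lower with UDCA. Without CA arrays 3 and 4, an alternative chosen after seeing the data, 0 members were lower between the diets. Except for the smaller set of genes under the stricter filter, the cause of these changes was not tested. With the array number as a replicate block, which pairs no samples here, 20 members were higher and 5 lower with CA, 12 and 2 with UDCA, and 8 and 1 between the diets. Leaving out each array in turn gave 18 to 20 members higher and 3 to 5 lower with CA, 10 to 15 and 2 to 3 with UDCA, and 7 to 12 and 1 to 1 between the diets. For all probes the ranges were 6845 to 7556 and 4907 to 5691, 2600 to 3521 and 1353 to 2036, and 2766 to 4079 and 1624 to 2732. Saturation limits the bright class I probes, and signal near background limits Oas3, Mx1 and Oas1g.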

Other observations

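On the UDCA arrays, array 6 held the highest ratio for some members, among them Oasl2 (1.59), Usp18 (1.29), Ifit1 (0.94), Rsad2 (0.98), Isg15 (0.96) and Irf1 (1.19). It held the lowest for others, among them Tap1 (-0.43) and Ifitm1 (-0.58). These genes were picked after their values were seen. Array 6 was the only array of slide 5, so its liver and its slide cannot be told apart.

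The pancreas markers, from tissue that neighbours the liver, were called lower with CA for 3 of 3 tested genes, against 22.4% of all genes. Their summed intensity ranged from 1581 to 4810 in CA-fed knockout against 2997 to 75828 in wild type.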
